A study of Mus musculus with 16 samples.

Results

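The genes described here are the pore and auxiliary subunits of the calcium channels that open with membrane voltage and of the potassium channels, read in mouse tail tendon fascicles, the thin collagen bundles that run the length of the tail. Members were chosen by gene symbol alone, as every symbol that begins with Cacna1, Cacna2d, Cacnb, Cacng or Kcn, with Kcnj8 left out. The prefixes gave 119 of the 25719 genes listed in each library, 26 calcium channel and 93 potassium channel genes. Not all of the potassium channel genes code for voltage-gated proteins. The Kcnj genes code for inward rectifiers, the Kcnk genes for leak channels of the tandem pore (K2P) class and the Kcnn genes for channels opened by calcium, while Kcnrg codes for a regulator and not for a pore.

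The study compared bulk RNA from fascicles of 8 knockout and 8 wild type libraries. Knockout is ScxCre;Vhl f/f, in which Cre recombinase driven by Scx (scleraxis, a transcription factor of tendon cells) removes the floxed Vhl gene. Vhl codes for the part of a ubiquitin ligase that marks the hypoxia-inducible factors for degradation when oxygen is present, and the series asks about HIF1α in the response of tendon to overload. The labels call the controls only WT, and neither their Vhl and Cre alleles nor the age, sex or strain of any mouse is given in the sources used here. Every cell of the fascicle was lysed together, so cells in which Scx-driven Cre was never active may be part of both groups, and fewer cells of a type and less RNA per cell cannot be told apart. The labels number the libraries but do not tie them to animals, so the p-values measure the spread between these libraries.

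Calcium channels are built from a pore-forming alpha1 subunit, which sets the type of current, and from alpha2delta, beta and gamma subunits that govern how many channels reach the membrane and how they gate. L-type channels open at strong depolarization and T-type channels close to the resting potential, and both let in the calcium that triggers contraction, secretion and gene expression. Potassium channels draw the membrane back toward rest, and Kv alpha subunits, inward rectifiers, K2P leak channels and calcium-activated channels do so under different conditions. In tendon cells calcium signals follow mechanical load.

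Libraries held between 10488355 and 18753254 counts among knockout samples, against 10792900 to 16379401 among wild type samples. Values are CPM (read counts relative to library size) scaled by the TMM factors of edgeR, and 3 counts, the limit that a count of 0 allows, corresponded to 0.145 to 0.336 CPM. That limit and the intervals below cover counting error only. Vhl itself stood at 9.35 ± 1.25 CPM (SD, n = 8) in knockout and 20.5 ± 3.69 CPM (SD, n = 8) in wild type fascicles, with a highest knockout library at 10.9 and a lowest wild type library at 14.1 CPM, a log2 fold change of -1.13 (SE 0.113). The 10 tendon markers, such as Col1a1, Tnmd and Scx, were all present and summed to 77615 to 181243 CPM per knockout library, and to 130910 to 380923 CPM per wild type library. Of those tendon markers 6 were lower and 1 was higher in the knockout, beside 22.7% lower and 25.6% higher among all tested genes.

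Across the 14803 genes with enough counts to test, 48.3% differed between the genotypes at an adjusted p under 0.05 in edgeR's quasi-likelihood test with Benjamini-Hochberg adjustment, 25.6% higher and 22.7% lower in the knockout. Of the 51 channel genes tested, 34 differed, 17 higher and 17 lower, which is 66.7% against that background of 48.3%. A change of at least 2-fold was called for 24 channel genes (47.1%), 13 higher and 11 lower, against 13.2% of all tested genes. In 25 tested channel genes (49.0%) no knockout library overlapped any wild type library, 13 with the knockout above and 12 with it below, where 19.4% of all tested genes were separated in this way, 10.8% above and 8.61% below. The median log2 fold change of the tested channel genes was 0.084 beside 0.018 for all tested genes, and the median size of the change was 1.25 beside 0.25 on the log2 scale. Among the tested members, 4 were at 3 counts or fewer in every wild type library and 1 in every knockout library, and these entered the test only through the group in which they were high. Others that were low in the wild type, such as Kcna3, Kcng2, Kcnj15 and Kcns1, also passed the filter only or mainly through the knockout. Likewise Cacna2d2, Kcng1 and Kcnh2, which were low in the knockout, passed it only or mainly through the wild type. The counts, separations and p-values are therefore a description of the genes that could be tested. Exons of 23 of the tested members, among them Cacna1a, Cacna1d, Cacna2d2, Kcng2, Kcnk2 and Kcnma1, overlap another annotated gene, whose reads their counts may hold.

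**Figure D1:**
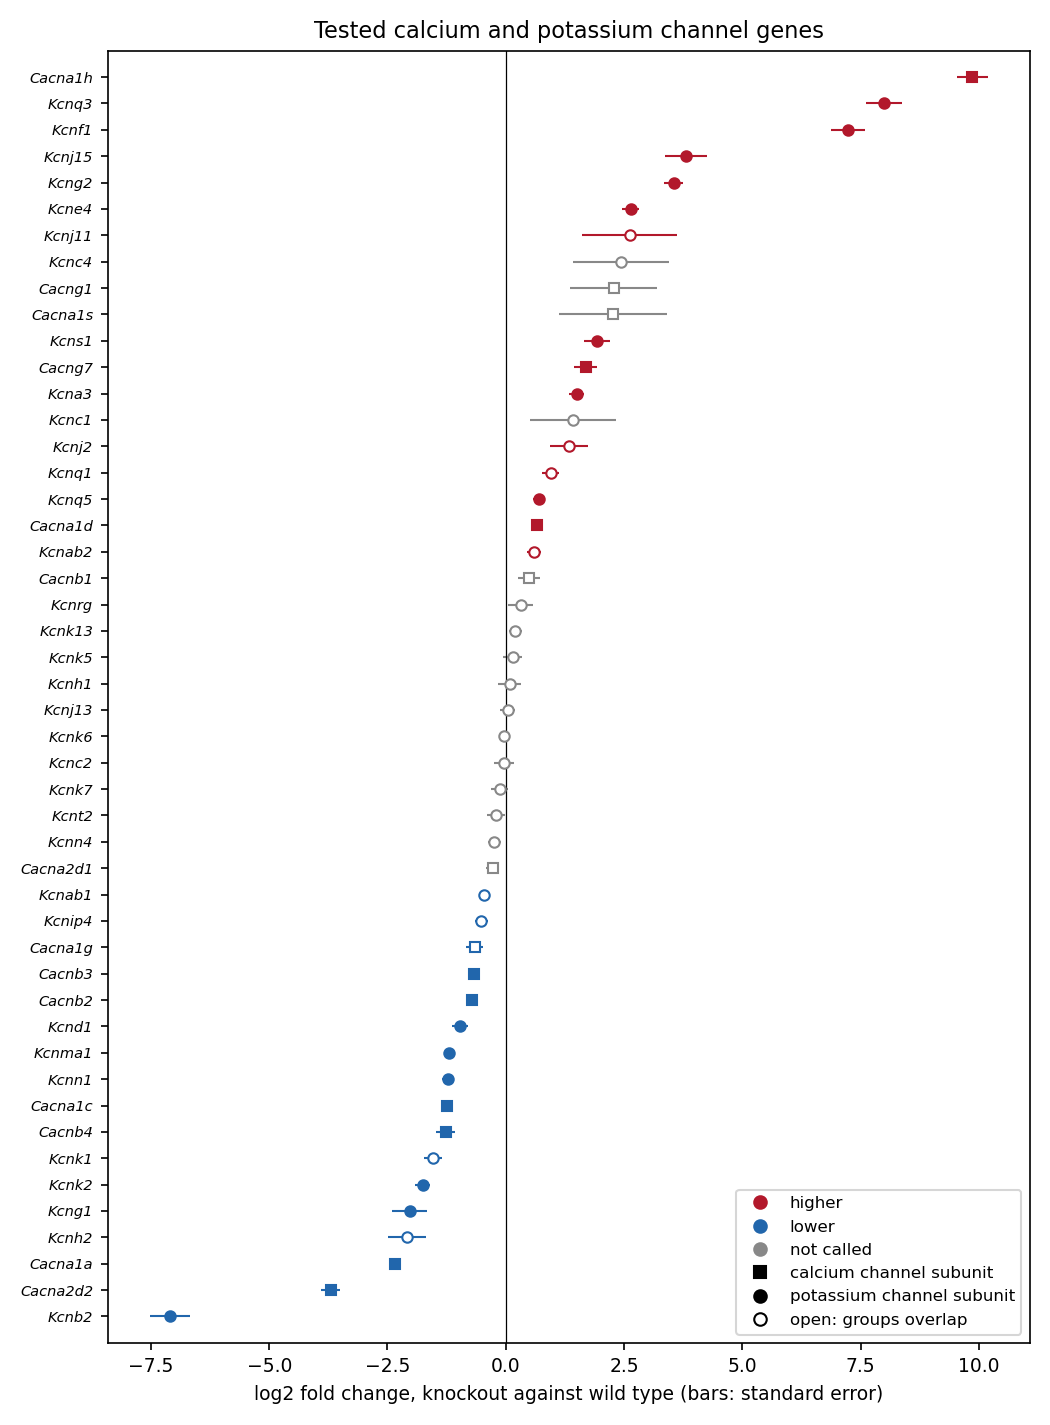
Log2 fold change (knockout against wild type, horizontal axis) with its standard error for 48 of the 51 tested channel genes, one row per gene; squares are calcium channel subunits and circles potassium channel genes, colour gives the direction of the call and filled markers show genes whose libraries did not overlap between the genotypes. The row ends are Kcnb2 at -7.10 and Cacna1h at 9.86.

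The 4 promoters below are shown because the members they belong to changed in opposite directions, and in each direction one window holds the core motif bound by hypoxia-inducible factors and one does not. Each is the stretch of 250 bases before the RefSeq start of the gene on GRCm38.p6, a build older than the GRCm39 of the deposited counts, written 5′ to 3′ in the direction of transcription. Capitals mark ACGTG or GCGTG, or CACGT or CACGC where the match is on the opposite strand. They were chosen from the 15 called members that had exactly 1 window left once windows touching an annotated exon were set aside (8 higher, 7 lower), as the members of those 15 with the largest change with and without the motif. Kcnf1 (chr12:17176889-17177138, minus strand) and Kcna3 (chr3:107035912-107036161, plus strand) were higher in the knockout, and Kcnh2 (chr5:24329592-24329841, minus strand) and Cacnb4 (chr2:52558612-52558861, minus strand) were lower.
Kcnf1: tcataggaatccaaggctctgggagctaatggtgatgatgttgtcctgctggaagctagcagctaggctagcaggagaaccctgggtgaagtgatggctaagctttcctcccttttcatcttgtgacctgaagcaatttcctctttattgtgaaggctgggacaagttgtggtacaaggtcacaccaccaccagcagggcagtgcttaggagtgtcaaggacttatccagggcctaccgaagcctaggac
Kcna3: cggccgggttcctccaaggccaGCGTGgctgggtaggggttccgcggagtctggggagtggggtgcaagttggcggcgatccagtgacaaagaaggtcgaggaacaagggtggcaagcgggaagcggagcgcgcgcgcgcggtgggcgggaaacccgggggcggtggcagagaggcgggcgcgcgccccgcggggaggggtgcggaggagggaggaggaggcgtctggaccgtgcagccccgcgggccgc
Kcnh2: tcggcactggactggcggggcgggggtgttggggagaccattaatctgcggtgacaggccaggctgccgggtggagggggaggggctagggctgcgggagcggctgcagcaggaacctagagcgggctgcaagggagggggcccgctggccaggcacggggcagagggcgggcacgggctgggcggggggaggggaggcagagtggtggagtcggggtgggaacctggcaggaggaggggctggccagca
Cacnb4: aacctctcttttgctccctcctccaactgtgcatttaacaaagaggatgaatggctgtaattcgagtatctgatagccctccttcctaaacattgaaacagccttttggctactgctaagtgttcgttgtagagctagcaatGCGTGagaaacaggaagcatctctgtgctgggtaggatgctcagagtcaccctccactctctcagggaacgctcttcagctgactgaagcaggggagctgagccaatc
The match in Kcna3 begins 228 bases and that in Cacnb4 108 bases before the start. A window was on record for 88 of the 119 members, and the motif was in 45 of their 122 windows (36.9%), beside 38.6% of the 32851 windows of all genes. Counted by gene, it was in at least 1 window of 5 of 10 higher, 7 of 12 lower and 7 of 14 uncalled members, beside 41.5% of all genes. These are letter matches in a short window and carry no measurement of binding.

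In wild type fascicles 38 of the 119 genes were expressed, meaning over 3 counts in all 8 libraries and a mean of at least 1 CPM. Divided by exon length, the highest was Cacna1g, the pore of the T-type channel CaV3, at 25.1 ± 6.84 CPM per kilobase (SD, n = 8). Kcnma1, the pore of the large-conductance calcium-activated (BK) channel, followed at 15.5 ± 2.72 CPM per kilobase. Next came Kcnk2, the mechanically gated K2P channel TREK, at 13.4 ± 2.11, then Cacna2d1, an alpha2delta subunit, at 12.2 ± 2.02, and Cacnb3, a beta subunit, at 10.6 ± 1.22 CPM per kilobase. The steps from Kcnma1 to Kcnk2, to Cacna2d1 and to Cacnb3 were each smaller than the larger SD of the neighbours, so their order is not fixed by these libraries. Cacna1c, the pore of the main L-type channel outside skeletal muscle, stood at 6.50 ± 0.850 and Cacna1a, the pore of the P/Q-type channel best known from nerve terminals, at 4.25 ± 0.863 CPM per kilobase.

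**Figure D2:**
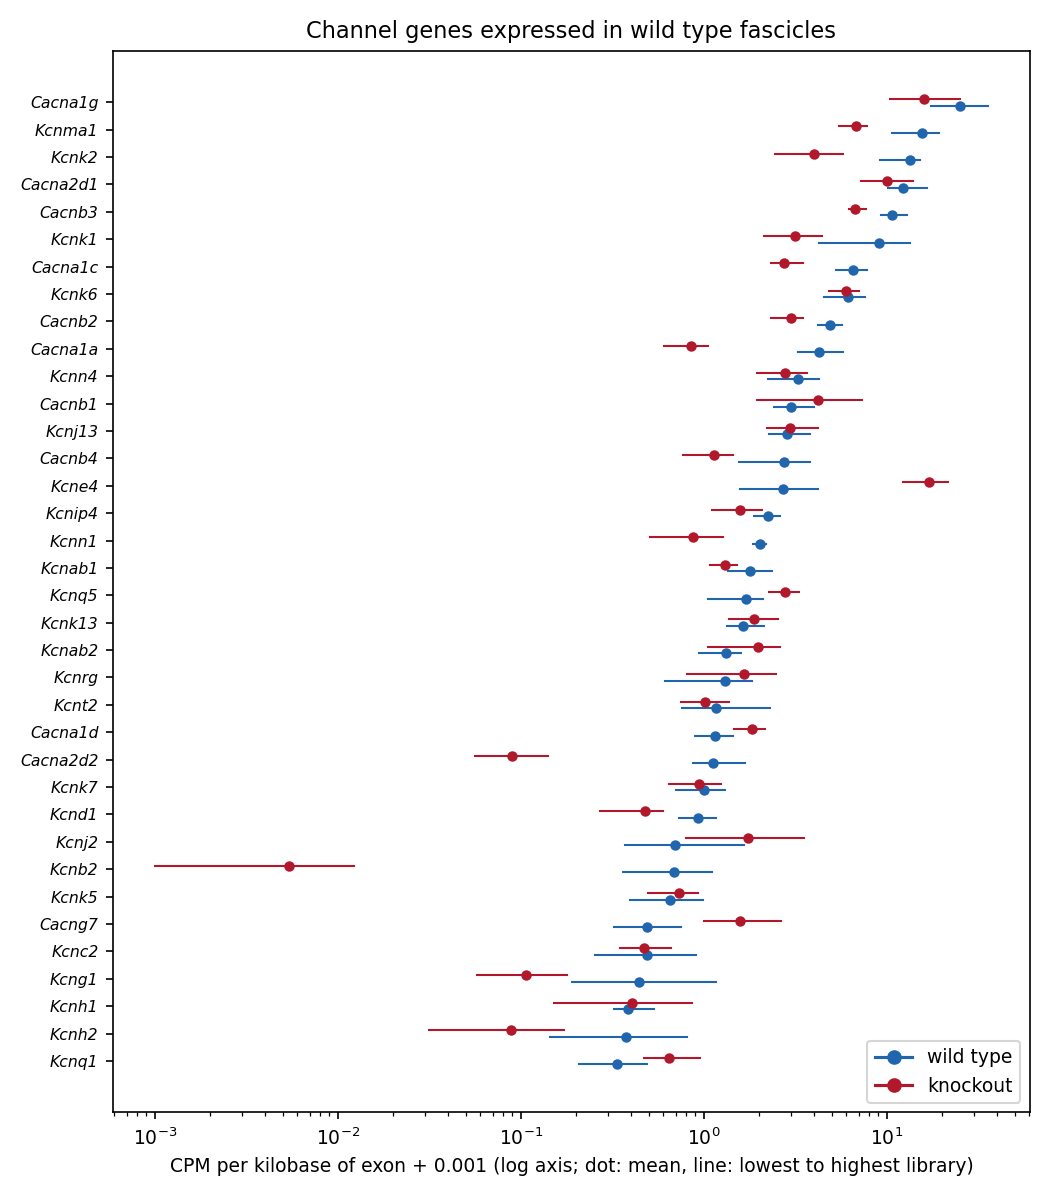
CPM per kilobase of exon, plus 0.001, on a log axis for 36 of the 38 channel genes expressed in wild type fascicles, ordered by the wild type mean; dots are means over 8 libraries and lines run from the lowest to the highest library. Cacna1g leads in the wild type at 25.1, and Kcne4, at 16.98 in the knockout, leads there.

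In the knockout 49 genes met the same rule, 34 of them shared with the wild type. The 4 expressed in the wild type alone were Cacna2d2, Kcnb2, Kcng1 and Kcnh2. The 15 that met the rule in the knockout alone included Cacna1h, Kcnq3, Kcnf1, Kcng2 and Kcnj15, described below, and also skeletal muscle channels such as Cacna1s and Cacng1. Missing the rule does not mean absence from the wild type. Cacna1s and Cacng1 missed it through 3 counts in wild type replicate 1, with 892 and 125 counts in wild type replicate 5. Kcng2 had 6 to 19 counts in the wild type libraries. Per kilobase the knockout order was led by Kcne4 at 16.98 and Cacna1g at 15.9 CPM per kilobase, and the step from Kcne4 to Cacna1g was smaller than either SD. A further 26 members were at 3 counts or fewer in every library, among them Cacna1i, Kcna4 and Kcne1, and 6 of those had no count at all, so expression up to the limit of 3 counts was not detectable at this depth.

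Among the calcium channel genes 14 of 26 were tested and 10 differed, 3 higher and 7 lower, and 9 of the 14 were separated between genotypes. Over all tested genes 48.3% differed and 19.4% were separated. The pores did not move together. Cacna1h, another T-type pore, rose from near 0, the P/Q-type pore Cacna1a and the L-type pore Cacna1c fell, and the L-type pore Cacna1d rose modestly. All 3 beta subunits that passed the test were lower, while scaling to total counts also called Cacnb1 higher.

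Cacna1h (ENSMUSG00000024112, chromosome 17) was at 0 to 0.0995 CPM in the wild type, with a median of 0, and at 20.9 to 54.9 CPM in the knockout, with a median of 38.0. Every knockout library lay above every wild type library by a wide gap. Summed over 8 libraries there were 4675 knockout counts and 3 wild type counts, a ratio of 1188 at equal depth with a 95% interval from 406 to 5764 for counting error. The fitted log2 fold change was 9.86 (SE 0.331, adjusted p = 4.01e-14), a value that depends on the prior count because the wild type is close to 0. Exons of Cacna1h overlap those of Tpsg1, a mast cell protease gene listed with 94 knockout counts and 1 wild type count. Cacna1g, the T-type pore that both genotypes expressed, ran from 177 over a median of 242 to 362 CPM in wild type libraries, and from 106 over 157 to 253 CPM in those of the knockout. These ranges overlapped, and its log2 fold change of -0.66 (SE 0.177, adjusted p = 0.00511) lost the call under scaling to total counts (-0.34, adjusted p = 0.0581) and with a muscle marker score in the model (-0.50, adjusted p = 0.0531).

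Cacna1c (ENSMUSG00000051331, chromosome 6) had 112 to 164 CPM in the wild type (median 139) and 49.2 to 73.4 CPM in the knockout (median 59.5). The groups were separate, with a 2.38-fold lower level in the knockout (log2 fold change -1.25, SE 0.0931, adjusted p = 1.41e-09). Cacna1a (ENSMUSG00000034656, chromosome 8) ran from 37.1 to 66.1 CPM in the wild type (median 46.4) and from 6.92 to 12.1 CPM in the knockout (median 9.78). Again no libraries overlapped, and the level was 5.05-fold lower (log2 fold change -2.34, SE 0.128, adjusted p = 1.66e-11). Cacna1d, an L-type pore that opens at less depolarized potentials than Cacna1c, moved the other way, from 14.5 ± 2.18 CPM (SD, n = 8; highest 18.2) to 23.0 ± 3.30 CPM (lowest 18.4). Its groups were separate by a narrow margin, and the log2 fold change was 0.67 (adjusted p = 1.99e-05).

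Of the alpha2delta subunits, Cacna2d2 (ENSMUSG00000010066, chromosome 9) fell from a range of 6.94 to 13.4 CPM (median 8.29) to one of 0.436 to 1.11 CPM (median 0.600). The groups did not overlap (log2 fold change -3.70, SE 0.199, adjusted p = 1.22e-11). Cacna2d1, the more abundant alpha2delta gene, was not called at 151 ± 25.1 CPM in wild type and 125 ± 30.5 CPM in knockout fascicles (SD, n = 8 each; log2 fold change -0.28, adjusted p = 0.0958). It is also a subunit of the skeletal muscle channel, and with the muscle marker score in the model it was called lower (-0.55, adjusted p = 3.43e-04). Without the 4 libraries highest in muscle markers, a run added after seeing the data, it was called lower as well (-0.46, adjusted p = 5.55e-04). Leaving out knockout replicate 7 alone also brought the call (-0.36, adjusted p = 0.0266). Under scaling to total counts its log2 fold change was 0.025.

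The beta subunits, which carry the pore to the membrane, showed smaller changes. Cacnb4 was lowest against its wild type level, with 14.02 to 34.0 CPM in the wild type (median 25.7) and 6.87 to 12.9 CPM in the knockout (median 10.3), a log2 fold change of -1.27 (adjusted p = 2.70e-05). Cacnb2 went from 65.0 ± 5.78 to 39.6 ± 5.12 CPM (log2 fold change -0.72, adjusted p = 3.63e-07) and Cacnb3 from 42.5 ± 4.90 to 26.8 ± 1.89 CPM (-0.67, adjusted p = 2.16e-07; SD, n = 8 each). In all 3 the genotypes were separate. Of the gamma subunits, which belong to a family shared with regulators of glutamate receptors, Cacng7 rose from a range of 0.785 to 1.82 CPM to one of 2.43 to 6.40 CPM, with no overlap (log2 fold change 1.69, SE 0.248, adjusted p = 1.29e-05). Its highest values, 5.22, 6.40 and 5.86 CPM in knockout replicates 6 to 8 and 1.82 CPM in wild type replicate 5, were in the 4 libraries highest in muscle markers. Knockout replicates 1 to 5 held 2.43 to 3.13 CPM. Over the alternative runs the log2 fold change ranged from 1.15 to 1.99.

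Potassium channel genes made up 37 of the tested members and 24 of those called (64.9% of the 37), 14 higher and 10 lower, with 16 of the 37 (43.2%) separated between genotypes. Over all tested genes 48.3% differed, 25.6% higher and 22.7% lower, and 19.4% were separated. Most of the gain lay in the Kv alpha subunits, where 9 of 18 tested genes were higher and 4 lower. The K2P and calcium- or sodium-activated genes that passed were all lower, 2 of 6 and 2 of 4, although scaling to total counts also called the K2P genes Kcnk6 and Kcnk13 higher. The inward rectifiers that passed were all higher, 3 of 4, but Kcnj2 and Kcnj11 among them lost the call in some alternative runs, as given below.

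**Figure D3:**
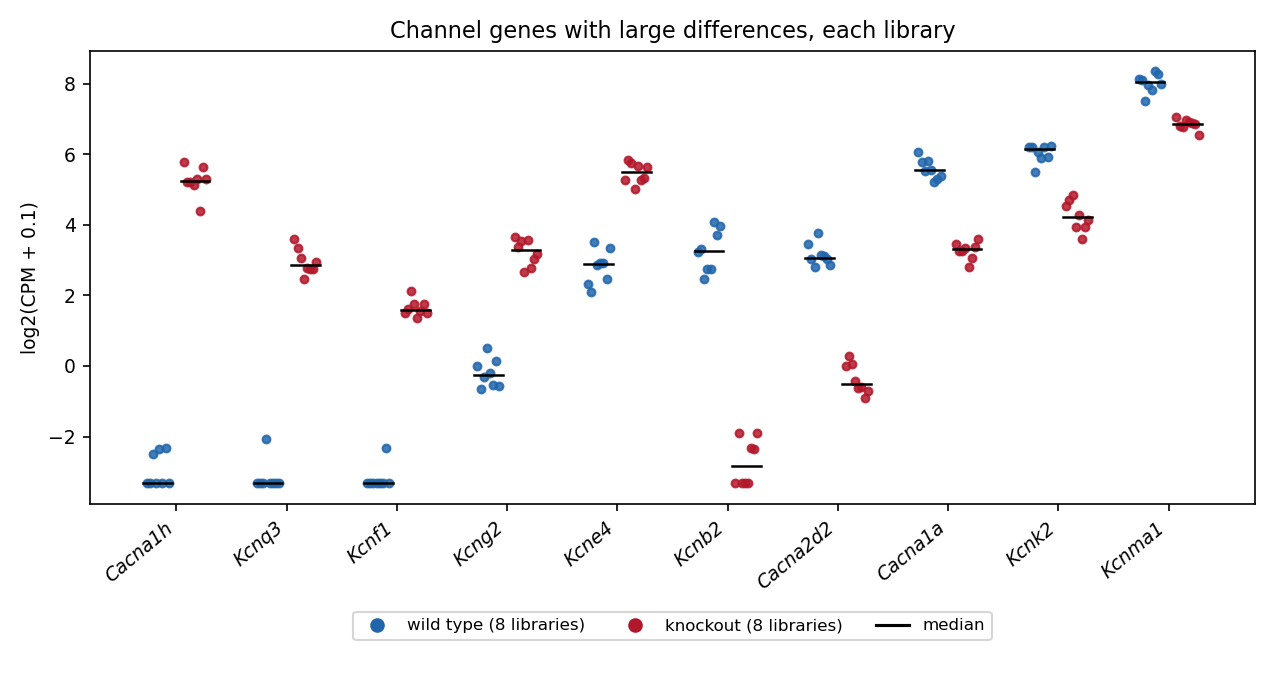
Log2(CPM + 0.1) of 10 channel genes with large differences in each of the 16 libraries; dots are libraries, short lines are group medians, blue is wild type and red is knockout. In each of the 10 genes the 8 knockout libraries lie wholly above or wholly below the 8 wild type libraries.

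Several Kv genes that were at or close to 0 in wild type fascicles were present in every knockout library. Kcnq3, a subunit of the M-current channel that restrains neuronal firing, had 2 counts in all wild type libraries together and 923 in the knockout, where it ran from 5.46 over a median of 7.16 to 11.98 CPM. The libraries were far apart, with a ratio of 352 (95% counting interval 97.1 to 2910) and a fitted log2 fold change of 7.99 (SE 0.384, adjusted p = 2.45e-12). Kcnf1, a Kv5 subunit that is silent alone and modifies Kv2 channels, had 1 wild type count and 366 knockout counts; in the latter group it spanned 2.47 to 4.27 CPM (median 2.91). Its ratio was 279 (49.8 to 11052), a wide interval since the wild type rests on a single count, and the fitted log2 fold change was 7.24 (SE 0.361, adjusted p = 4.43e-12).

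Kcnb2 (ENSMUSG00000092083, chromosome 1), a pore of the Kv2 delayed rectifiers, moved the other way, with 5.46 to 16.9 CPM in the wild type (median 9.51) and 0 to 0.170 CPM in the knockout (median 0.0485). Its summed counts were 938 for wild type and 8 for knockout, a ratio of 154 (95% counting interval 77.7 to 357), with a fitted log2 fold change of -7.10 (SE 0.427, adjusted p = 1.10e-10).

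Silent subunits that assemble with Kv2 pores were split in direction. Kcng2 (chromosome 18) rose from 0.529 to 1.32 CPM in the wild type (median 0.735) to 6.27 to 12.5 CPM in the knockout (median 9.64), without overlap (log2 fold change 3.55, SE 0.205, adjusted p = 3.42e-11). Kcns1 also rose, from 0.657 ± 0.356 to 2.42 ± 0.776 CPM (SD, n = 8 each; log2 fold change 1.93, adjusted p = 1.20e-05). Kcng1 fell from 1.99 ± 1.47 to 0.478 ± 0.175 CPM (log2 fold change -2.03, adjusted p = 1.50e-04), and in both of these the libraries were separate. The Kv2 partner Amigo1, a membrane protein that binds Kv2 channels and is no member, was lower by a small step (log2 fold change -0.47, adjusted p = 0.0001).

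Kcne4 (ENSMUSG00000047330, chromosome 1), a single-pass subunit that damps several Kv channels, had 4.16 to 11.2 CPM in the wild type (median 7.25) and 32.4 to 57.1 CPM in the knockout (median 44.9). The ranges were well apart at 6.22-fold (log2 fold change 2.64, SE 0.185, adjusted p = 1.58e-09). Kcna3, a Kv1 pore known from lymphocytes, was low in both groups, at 0.488 to 0.796 CPM in wild type and 1.52 to 2.77 CPM in knockout libraries, yet separate (log2 fold change 1.50, adjusted p = 3.45e-07). Kcnq1, which pairs with Kcne subunits in heart and epithelia, went from 1.36 ± 0.330 to 2.64 ± 0.593 CPM with overlapping libraries (log2 fold change 0.95, adjusted p = 1.62e-04). Its exons overlap the antisense transcript Kcnq1ot1, from which its reads cannot be told apart without strand. The remaining higher genes, named after their values were seen, were Kcnq5 (log2 fold change 0.71, adjusted p = 6.20e-05) and the cytoplasmic subunit Kcnab2 (0.59, adjusted p = 0.00265).

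Among inward rectifiers Kcnj15 (chromosome 16) had 0.156 to 1.34 CPM in the wild type (median 0.577) and 3.23 to 18.2 CPM in the knockout (median 6.00). The groups were separate, with the highest values, 15.2 and 18.2 CPM, in knockout replicates 6 and 7, and the log2 fold change was 3.81 (SE 0.451, adjusted p = 1.79e-06). Without the 4 libraries highest in muscle markers, replicates 6 and 7 among them, it was 3.26. Kcnj2, the classical inward rectifier of heart and skeletal muscle, ran from 2.02 to 9.03 CPM in wild type and from 4.34 to 19.3 CPM in knockout libraries. These overlapped, and the log2 fold change of 1.34 (adjusted p = 0.0118) was not called with the muscle marker score in the model (0.44, adjusted p = 0.0902).

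Lower potassium channel genes included the pair with the highest wild type levels per kilobase, Kcnma1 and Kcnk2. Kcnma1 (ENSMUSG00000063142, chromosome 14) had 180 to 326 CPM in the wild type (median 265) and 92.5 to 132 CPM in the knockout (median 117), 2.28-fold lower with no overlap (log2 fold change -1.19, SE 0.103, adjusted p = 1.23e-08). Kcnk2 (ENSMUSG00000037624, chromosome 1) had 45.2 to 75.0 CPM in the wild type (median 70.2) and 12.1 to 28.4 CPM in the knockout (median 18.4). It too was separate, 3.38-fold lower (log2 fold change -1.76, SE 0.160, adjusted p = 4.91e-08). Kcnk1, a weakly conducting K2P channel, fell from 20.3 ± 5.82 to 7.01 ± 1.76 CPM (SD, n = 8 each; log2 fold change -1.54, adjusted p = 2.32e-06), with a slight overlap of 9.52 in the lowest wild type and 9.84 CPM in the highest knockout library.

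Kcnn1, a small-conductance calcium-activated channel, was the steadiest of these in the wild type, at 8.52 to 10.04 CPM, and stood at 2.33 to 5.81 CPM in the knockout (log2 fold change -1.22, adjusted p = 2.77e-07). Kcnd1, an A-type Kv4 pore, went from 4.90 ± 0.854 to 2.51 ± 0.633 CPM (log2 fold change -0.97, adjusted p = 6.81e-05), again without overlap. Kcnh2, the ERG channel of cardiac repolarization, went from 1.82 ± 1.17 to 0.423 ± 0.213 CPM with overlapping libraries (log2 fold change -2.09, adjusted p = 2.28e-04). The auxiliary subunits Kcnip4 and Kcnab1 were lower by 0.51 and 0.46 on the log2 scale (adjusted p = 0.00355 and 0.00129), calls that scaling to total counts did not keep. Among the 6 potassium channel genes highest in the wild type, Kcnk6, a K2P channel, was not called (25.3 ± 4.23 CPM in wild type and 24.7 ± 3.51 CPM in knockout fascicles; log2 fold change -0.035, SE 0.106), and under scaling to total counts it was called higher at 0.27. Kcnn4, the intermediate-conductance calcium-activated channel, was not called either (16.7 ± 3.01 and 14.2 ± 3.54 CPM; log2 fold change -0.24, adjusted p = 0.187).

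Of the 68 untested members, 42 exceeded 3 counts in at least 1 library. Kcnk3, a K2P channel sensitive to acid, had no count in any wild type library and 223 counts in the knockout, at least 56.7-fold higher against a floor of 3 counts over the group. Its 3 highest values, 2.69, 5.04 and 3.40 CPM, were in knockout replicates 6, 7 and 8, and the other knockout libraries held 0.0850 to 0.890 CPM. Kcne3, a partner of Kcnq1, had 50 knockout counts and 3 wild type counts, a ratio of 12.7 (95% counting interval 4.11 to 63.7). Kcnn3, a small-conductance calcium-activated channel, had the highest mean of the untested members, 0.965 CPM in wild type and 4.44 CPM in knockout fascicles, with 8.47, 12.3 and 6.88 CPM in knockout replicates 6, 7 and 8 and 4.71 CPM in wild type replicate 5. The genes Kcnk3, Kcne3 and Kcnn3 were picked after their values were seen and have no test.

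Among the skeletal muscle channels, Cacna1s codes for the L-type pore that senses voltage in skeletal muscle, and it ran from 0.303 to 85.7 CPM in the wild type (median 3.61) and from 3.02 to 214 CPM in the knockout (median 26.5). The 4 highest values were 214, 167 and 154 CPM in knockout replicates 7, 6 and 8 and 85.7 CPM in wild type replicate 5, and the other wild type libraries held at most 19.5 CPM. Its log2 fold change of 2.27 (SE 1.14) was not called (adjusted p = 0.117), but without wild type replicate 5 it was called (3.62, adjusted p = 0.0182). Cacng1, the gamma subunit of the same channel, ran from 0.303 to 12.004 and from 0.989 to 49.9 CPM (log2 fold change 2.28, adjusted p = 0.0542), and was called without wild type replicate 5 (2.92, adjusted p = 0.0230) and without any 1 of knockout replicates 2 to 5 (2.43 to 2.46). It was also called under scaling to total counts (2.57, adjusted p = 0.0274) and in the DESeq2 Wald test (2.25, adjusted p = 0.0251). Cacnb1, the beta subunit of that channel, was not called at 13.6 ± 2.19 and 19.0 ± 8.55 CPM (log2 fold change 0.49, adjusted p = 0.0920), though it was without knockout replicate 5 (0.60, adjusted p = 0.0210) and under scaling to total counts (0.79, adjusted p = 0.0100). The same 4 libraries were also highest for Kcnc4, a Kv pore that is not on the muscle list and was named after its values were seen, at 14.04, 25.2 and 21.1 CPM in knockout replicates 6, 7 and 8 and 8.07 CPM in wild type replicate 5 (log2 fold change 2.43, adjusted p = 0.0619).

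As a sum, the 20 skeletal muscle markers, such as Acta1, Ckm and Myh4, were also highest in knockout replicates 6 to 8 and wild type replicate 5. Their summed level ran from 463 to 26743 CPM per knockout library and from 108 to 11003 CPM per wild type library, and none was at 0 in every library of a group. All 20 were tested, and 5 were higher and 0 lower in the knockout. That share of higher genes is close to the 25.6% of all tested genes, of which 22.7% were lower. As a mean log2 CPM, the marker score was 3.15 to 5.92 in knockout replicates 1 to 5 and 8.43 to 8.77 in replicates 6 to 8. In the wild type it was 0.66 to 1.30 in replicates 1, 2, 6 and 8 and 4.18 to 7.54 in replicates 3, 4, 5 and 7. The genotypes differed by 2.70 (two-sided exact permutation test, p = 0.0494, and 0.0824 after Benjamini-Hochberg adjustment over 10 marker lists). With the score in the model the log2 fold change of Cacna1s was 0.35 (adjusted p = 0.0757), that of Cacng1 0.13 (adjusted p = 0.670) and that of Cacnb1 -0.034 (adjusted p = 0.897). Beyond these fits the part of muscle RNA in the result was not tested.

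**Figure D4:**
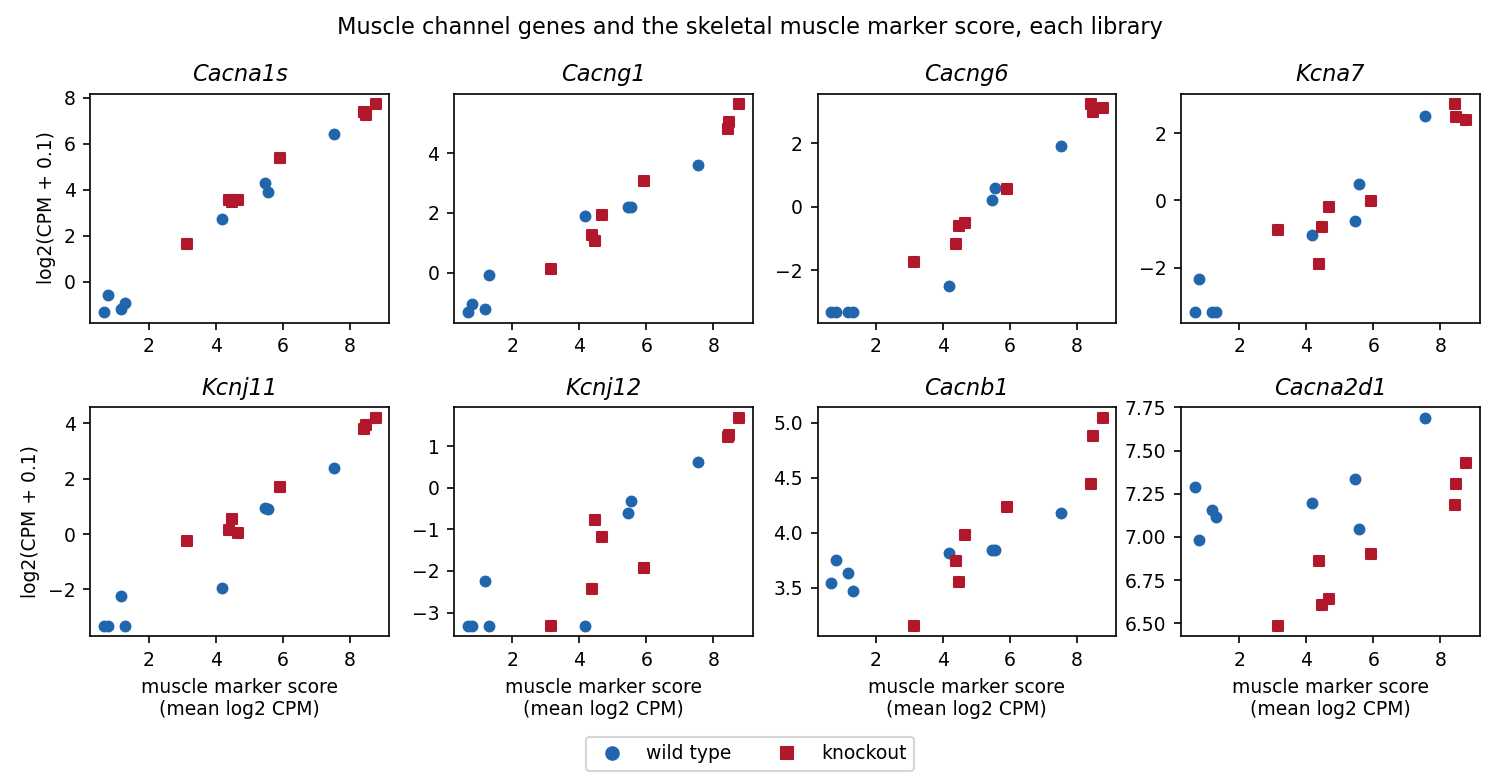
Log2(CPM + 0.1) of the 8 skeletal muscle channel genes (vertical axis) against the skeletal muscle marker score (mean log2 CPM, horizontal axis) in each library; circles are wild type and squares are knockout. For Cacna1s the knockout squares and wild type circles fall along one course, with knockout replicates 6 to 8 at the upper end.

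Of the 8 genes fixed as muscle channels 5 were tested and 1 was called, Kcnj11, the pore of the ATP-sensitive potassium channel, which also occurs in other tissues. Kcnj11 ran from 0 to 5.19 CPM in the wild type (median 0.134) and from 0.742 to 18.4 CPM in the knockout (median 2.26), with overlap. Its log2 fold change of 2.62 (SE 1.00, adjusted p = 0.0426) lost the call when any 1 of knockout replicates 6 to 8 or of wild type replicates 1 to 4 and 6 to 8 was left out (2.22 to 2.78, adjusted p from 0.0554 to 0.0919). The call was also lost with no expression filter (2.62, adjusted p = 0.0549) and in the DESeq2 Wald test (2.58, adjusted p = 0.0540). With the muscle score in the model the log2 fold change of Kcnj11 was 0.72 (adjusted p = 0.0328), and without the 4 muscle-rich libraries it was 1.31 (adjusted p = 0.228). The untested muscle channels had means of 0.771 and 3.58 CPM for Cacng6, 0.988 and 2.58 CPM for Kcna7 and 0.351 and 1.09 CPM for Kcnj12 in the wild type and knockout. Outside the muscle list 33 of 46 tested members (71.7%) were called.

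With knockout replicates 6 to 8 and wild type replicate 5 left out, 36 members were called. These were 33 of the 34, without Kcnj11, and 3 others, Cacna2d1 among them and 1 (Kcnh3) that the filter had kept from the test on all libraries. The log2 fold change was then 10.20 for Cacna1h, 7.95 for Kcnq3, 7.14 for Kcnf1 and -8.11 for Kcnb2. Markers of other cell types were scored in the same way, and their calls stand beside 25.6% higher and 22.7% lower among all tested genes. Of the 11 endothelial markers tested 9 were higher, with a summed level of 70.8 to 768 CPM per knockout library and 42.1 to 67.3 CPM per wild type library. Of the 8 mural markers 5 were higher and 1 lower (337 to 1574 and 359 to 477 CPM), and all 5 tested erythroid markers were higher (77.3 to 560 and 15.1 to 50.7 CPM). Schwann cell markers summed to 292 to 544 and 415 to 479 CPM, with 2 of 6 tested higher, and neuronal markers to 7.74 to 39.4 and 8.09 to 24.0 CPM, with 1 of 2 tested higher and Nefl at 0 in every wild type library. Macrophage markers were higher in 3 of 9 (1264 to 1841 and 1128 to 1616 CPM), adipocyte markers in 2 of 2 (1.45 to 68.4 and 0.676 to 2.59 CPM), and chondrocyte markers were higher in 3 and lower in 2 of 6 (154 to 498 and 831 to 1814 CPM). In the exact permutation test of the scores, adjusted over the 10 lists, p was 0.000518 for the endothelial, mural and erythroid lists (0.000155 before adjustment, the smallest that 8 against 8 libraries can give) and 0.00117 for the adipocyte list. It was 0.127 for macrophage, 0.149 for Schwann cell, 0.346 for chondrocyte and 0.375 for neuronal markers. Each score averages only the tested markers of its list, 2 of 7 for the adipocyte and 2 of 10 for the neuronal list. Both tested adipocyte markers were higher in the knockout and may have passed the filter mainly through it. The adipocyte p is therefore a description only. The part of these cell types in the channel results was not tested.

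Genes that work with these channels were read from 5 lists, 52 of 71 of them tested and 30 called (57.7% against the background of 48.3%), 17 higher and 13 lower. Among inhibitors and anchors of calcium channels 4 of 6 tested were higher and 1 lower. They include the adaptors Stac2, from 1.98 ± 0.700 to 17.9 ± 1.97 CPM (log2 fold change 3.17, adjusted p = 6.91e-12), and Stac (2.18), and the small GTPases Rrad (1.84) and Gem (0.65), which hold calcium channels down. Partners of potassium channels, not all of them Kv partners, were higher in 3 and lower in 2 of 5 tested. The Kv4 partners Dpp6 and Dpp10 rose from 2.70 ± 0.864 to 87.3 ± 8.77 CPM (log2 fold change 5.04, adjusted p = 1.09e-14) and from 0.920 ± 0.244 to 31.4 ± 12.7 CPM (5.08), while the Kv1 partner Adam22 fell (-1.45). The pore Kcnd1 with which Dpp6 and Dpp10 assemble was lower, as given above.

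Of the genes for calcium stores, entry and extrusion 4 of 18 tested were higher and 6 lower. Orai2, a pore for store-operated entry, rose from 2.86 ± 0.293 to 15.9 ± 1.68 CPM (log2 fold change 2.47, adjusted p = 6.97e-14) and the sodium-calcium exchanger Slc8a1 rose by 1.63, while the mitochondrial uniporter Mcu fell (-1.38). Among sodium, HCN and leak channels 4 of 10 tested were higher and 3 lower, with Scn7a at 5.24, Scn8a at 0.98 and Nalcn, the sodium leak pore, at -1.05 on the log2 scale. Of the muscle excitation-contraction partners 2 of 13 were higher, Chrna1 (4.89) and Sln (4.15), and 1 was lower, the store release channel Ryr3 (366 ± 96.3 to 106 ± 39.3 CPM, log2 fold change -1.79, adjusted p = 3.39e-06). The share called, 23.1%, was below the 48.3% of all tested genes. Chrna1 and Sln had only 22 and 18 counts over the wild type libraries together. They passed the filter only or mainly through the knockout, and their fold changes rest on wild type values near the floor. Trdn, which anchors the release complex in muscle, was not called (2.38, adjusted p = 0.0995).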

How the data were processed

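Bulk RNA-seq of tail tendon fascicles from 8 ScxCre;Vhl f/f and 8 wild type libraries was analysed. The deposited values are whole-number read counts per Ensembl gene. The submitters' processing notes name kallisto, featureCounts and the genome build GRCm39. Which of these made the counts, the annotation and any use of strand are not given in the sources used here, so reads of a gene and of an overlapping or antisense gene may not be separated; exons of 38 members overlap another gene.

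Of 25719 listed genes, 25614 took a symbol from the gene name table and 105 did not. Genes were kept by edgeR's filterByExpr, scaled by TMM and tested with edgeR 4.0.16 (R 4.3.3) by the quasi-likelihood F test, with Benjamini-Hochberg adjustment over all 14803 tested genes and a threshold of 0.05. The script was tested on simulated data. Python 3.11.15 was used for tables. CPM used TMM-scaled library sizes, and marker scores are mean log2 CPM of the tested markers of a list, with a prior count of 2. No replicates appeared to be one library deposited more than once. Exon lengths, exon overlaps and chromosomes came from GENCODE M21 on GRCm38, and its exons were used to set promoter windows aside. Promoters came from RefSeq on GRCm38.p6.

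The members and lists were chosen with earlier results of these data known. Named with values were every tested calcium channel gene, the muscle channels, the called potassium channel genes with the 12 largest increases and decreases, the 6 potassium channel genes highest in the wild type and up to 4 genes per partner list by adjusted p. Alternatives were DESeq2 1.42.0 size factors and its Wald test, total counts, no filter, the muscle score as covariate, a replicate block, each library left out and, added after seeing the data, the 4 libraries with the highest muscle score left out. Some genes counted in the totals are not reported here by name and are not drawn in the figures.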

Additional observations from a re-analysis of the deposited data

Results flagged for a closer look

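For the 42 named members, each genotype was checked for a library standing apart from the other 7 in log2 CPM, by Dixon's test at its 95% level. Of 84 such checks 5 pointed to a library, where chance gives about 1 in 20, or 4.20. Cacnb3 was highest in knockout replicate 3, at 4.96 with the next library at 4.79. Kcnk2 was lowest in wild type replicate 3, at 5.50 with the next at 5.90. Kcna3 was lowest in wild type replicate 4, at -0.65 with the next at -0.28. Kcnf1 stood at -1.9999 in wild type replicate 7 and Kcnq3 at -1.79 in wild type replicate 4, where the other wild type libraries, all without a count, sat at -2.73.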

How the results depend on the processing

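None of the 34 calls changed direction in any alternative run. Scaling to total counts shifted the median of all genes by 0.32 (log2) and turned 3792 higher and 3359 lower genes into 8270 and 1415. It kept 31 member calls, lost Cacna1g, Kcnab1 and Kcnip4, and gave 5 higher calcium channel genes. The sign changed for 6 uncalled members with total counts and for 4 with the muscle score. Those named in the report were Cacna2d1 (0.025), Kcnk6 (0.27, adjusted p = 0.0157) and Kcnn4 (0.053) with total counts, and Cacnb1 (-0.034) and Kcnk6 (0.084) with the muscle score. Kcnk6 was also positive without knockout replicate 7 (0.0044), without wild type replicate 4 (0.016) and without the 4 muscle-rich libraries (0.041), and with each library left out it ranged from -0.097 to 0.016. With no expression filter 26 members were higher, and 39 potassium channel genes were called, 23 higher and 16 lower. The DESeq2 Wald test called 27 members higher and 39 potassium channel genes, 23 higher and 16 lower. It ran on genes that the filter leaves out, and more members were tested in both fits. The labels do not say whether the replicate numbers pair the libraries. The deviations of libraries sharing a number correlated from -0.397 to 0.394, over 0.1 in 3 of 8 pairs, and 1 of 8 knockout libraries correlated best with its own number. These correlations cannot decide the question, since muscle content also differed between the libraries. With the number as a block 7010 genes and 32 members were called, without Kcnj11 (2.62, adjusted p = 0.139) and Kcnj2 (1.22, adjusted p = 0.0645). Leaving out 1 library at a time gave 33 to 38 called members, 16 to 21 higher and 17 to 18 lower, 10 to 12 calcium channel genes, 3 to 5 of them higher, and 23 to 26 potassium channel genes. The difference in muscle score ranged from 2.31 to 3.30, with exact p from 0.0154 to 0.0915. The genes expressed in the wild type numbered 38 to 41 with a library left out, and 47 or 33 with a minimum of 0.5 or 2 CPM. Planned correlations of muscle channels with the muscle score were not computed, since the scores fall in separate clusters of under 6 libraries within each genotype. Depth limits the genes near 3 counts, where 68 members had no test.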
